A study of Mus musculus with 16 samples.

Results

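Fibroblast growth factor (FGF) ligands, their receptors and the feedback genes they induce were followed in mouse whole lung and whole cerebellum after treatment with dexamethasone, a synthetic glucocorticoid. The genes were chosen by symbol: all numbered Fgf, Fgfr, Spry and Spred genes, with Fgfrl1, Fgfbp1, Etv4, Etv5, Dusp4, Dusp6, Frs2 and Frs3. The array measured 40 of these 41 genes, out of 18193 genes in all, and Frs2 was not analysed here. The study asked what chronic glucocorticoid exposure does to gene expression in these neonatal organs. All animals were C57BL/6J mice and organs were taken at P7, postnatal day 7. The 4 groups were dexamethasone lung, vehicle lung, dexamethasone cerebellum and vehicle cerebellum, with 4 arrays each. They are described as biological replicates. The sources used here state no dose, schedule, sex or litter, so p-values rest on the spread among these arrays. All values are levels on the log2 scale from robust multi-array averaging (RMA), so a difference of 1 is a factor of 2.

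FGF ligands are secreted proteins that bind heparan sulfate and activate receptor tyrosine kinases, which signal through Frs adaptors, Ras and ERK. ERK signalling induces its own inhibitors (the Sprouty and Spred proteins and the phosphatases Dusp4 and Dusp6) and the ETS transcription factors Etv4 and Etv5, whose transcripts are widely used as readouts of the pathway. In the lung, mesenchymal Fgf10 and Fgf7 signal to Fgfr2 in the epithelium during branching and growth, and Fgfr3 and Fgfr4 are needed together for normal alveoli. In the cerebellum, FGF signalling patterns the early primordium and acts in Bergmann glia, and the intracellular FGF homologous factors Fgf11 to Fgf14, which are not secreted and bind voltage-gated sodium channels, serve neuronal excitability.

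Each gene was read by 1 probe set, the one with the highest mean over the 16 arrays; 23 of the 40 had more than 1. Levels of different genes cannot be compared, because each probe set has its own affinity. The median level over all genes and arrays was 7.37. Of the 40 FGF genes 15 had means below it in all 4 groups (37.5%, against 39.85% of all genes), and the means of 7 of those also lay below 5.0, the 25th percentile of all levels: Fgf2, Fgf6, Fgf8, Fgf16, Fgf17, Fgf21 and Fgf23. For such dim genes a change may not be measurable. Arrays of the same organ correlated at 0.946 to 0.996 over genes and arrays of different organs at 0.749 to 0.830. The organs matched their labels: the mean level of 8 alveolar type 2 markers was 12.77 to 13.52 in lungs and 6.50 to 6.97 in cerebella, and that of 6 Purkinje cell markers 6.53 to 7.09 in lungs and 11.44 to 12.15 in cerebella. A gene was called at an adjusted p under 0.05 in limma (Benjamini-Hochberg over all 18193 genes, 4 groups fitted together).

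Without the drug the FGF genes were already distributed very unequally between the organs. In vehicle lung against vehicle cerebellum 30 of the 40 (75.0%) were called, while 57.7% of all genes were. Of these 16 were higher in lung (28% of all genes were) and 14 were lower (29.7% of all genes were). The median size of the difference was 1.05 on the log2 scale, against 0.41 for all genes. All 6 receptor and carrier genes were higher in lung and all 4 intracellular factors were lower there. The 3′ minus 5′ difference of the Gapdh control probes did not overlap between vehicle lung (0.84 to 1.04) and vehicle cerebellum (0.04 to 0.52). That of actin overlapped. By the Gapdh measure RNA integrity and organ cannot be told apart here.

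Among the probe sets that stand for the receptors, that of Fgfr4 had the widest gap. It averaged 9.52 ± 0.18 in vehicle lung and 5.99 ± 0.23 in vehicle cerebellum (SD, n = 4 each), which is 11.5-fold higher in lung (log2 difference 3.53 ± 0.32, standard error, limma adjusted p = 3.61e-08). The other 4 Fgfr4 probe sets differed by 0.24 (not called) to 1.87, and the average of all 5 by 1.44, close to the 1.38 of Fgfr2 averaged in the same way. Fgfr2 was 3.32-fold, Fgfr3 2.56-fold, Fgfrl1, a receptor without a kinase domain, 1.72-fold and Fgfr1 1.41-fold higher in lung. Of the 3 Fgfr1 probe sets only 1 was called, and the others differed by 0.19 and 0.03. The Fgfr1 call held in all 25 alternative fits, with log2 differences down to 0.24. Fgfbp1, a secreted carrier that releases FGFs from the matrix, was 2.62-fold higher in lung.

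Among the 15 paracrine ligands 5 were higher in vehicle lung and 4 were lower. Fgf1, which binds all FGF receptors, was 8.20-fold higher in lung, Fgf18, a mesenchymal ligand of alveolar development, 7.04-fold, and Fgf7, the keratinocyte growth factor, 5.73-fold. Fgf5 was 9.98-fold lower in lung and Fgf9 2.51-fold lower, and the size depended on the probe set (second probe sets -0.67 and -3.09, averages -1.99 and -2.21 on the log2 scale). Fgf5 read 4.30 in vehicle lung and Fgf18 4.95 in vehicle cerebellum, below 5.0, where a level may be background, so these folds may understate the difference. Fgf2, Fgf3, Fgf4 and Fgf10 passed the test with log2 differences of 0.32, -0.55, -0.35 and 0.31, each below the median level in every group. The calls of Fgf2 (adjusted p = 0.0515 to 0.114) and Fgf10 (0.0514 to 0.109) were lost without array B14, B19, B78, B80 or B81. That of Fgf4 was lost without array B12, B14, B22, B79, B80 or B81 (adjusted p = 0.0573 to 0.105), and the average of its 4 probe sets differed by -0.05 (0.702). Of the 3 endocrine ligands, Fgf15 was lower in lung (log2 difference -0.61 ± 0.11) and Fgf21 and Fgf23 were not called.

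The intracellular factors had the opposite distribution to the receptors. Fgf13 averaged 5.49 ± 0.21 in vehicle lung and 11.58 ± 0.15 in vehicle cerebellum (SD, n = 4 each), 67.8-fold lower in lung (log2 difference -6.08 ± 0.13, limma adjusted p = 2.86e-16). The second Fgf13 probe set differed by -2.47 and the average of both by -4.28. Fgf14 was 12.0-fold, Fgf12 4.99-fold and Fgf11 3.49-fold lower in lung. The 4 Fgf14 probe sets ran from -3.58 to -0.18 (the last not called), with an average of -1.69, and the Fgf11 average was -0.99. Fgf14 read 4.13 in vehicle lung, where a level may be background.

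The feedback genes split between the organs. Spry1 (6.02-fold), Dusp6 (4.65-fold), Spry4 (3.55-fold) and Spred1 (1.21-fold) were higher in vehicle lung, while Spred3 (3.27-fold), Spry3 (2.61-fold), Dusp4 (1.74-fold) and Spred2 (1.61-fold) were lower there, and Spry2 was not called (log2 difference 0.09 ± 0.12). Averaging the 4 probe sets of Spry4 lowered its difference from 1.83 to 1.20. Spred3 and Spry3 read 4.71 and 4.24 in vehicle lung, below 5.0. The Spred1 call was lost without vehicle lung array B19 (adjusted p = 0.0655) or vehicle cerebellum array B79 (adjusted p = 0.0620). Averaging the 5 probe sets of Spred2 ended its call (adjusted p = 0.106). Of the 2 ETS genes Etv5 was 2.48-fold higher in lung and Etv4 did not pass (log2 difference -0.26 ± 0.14, limma adjusted p = 0.126). The adaptor Frs3 was 2.56-fold lower in lung.

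**Figure D1:**
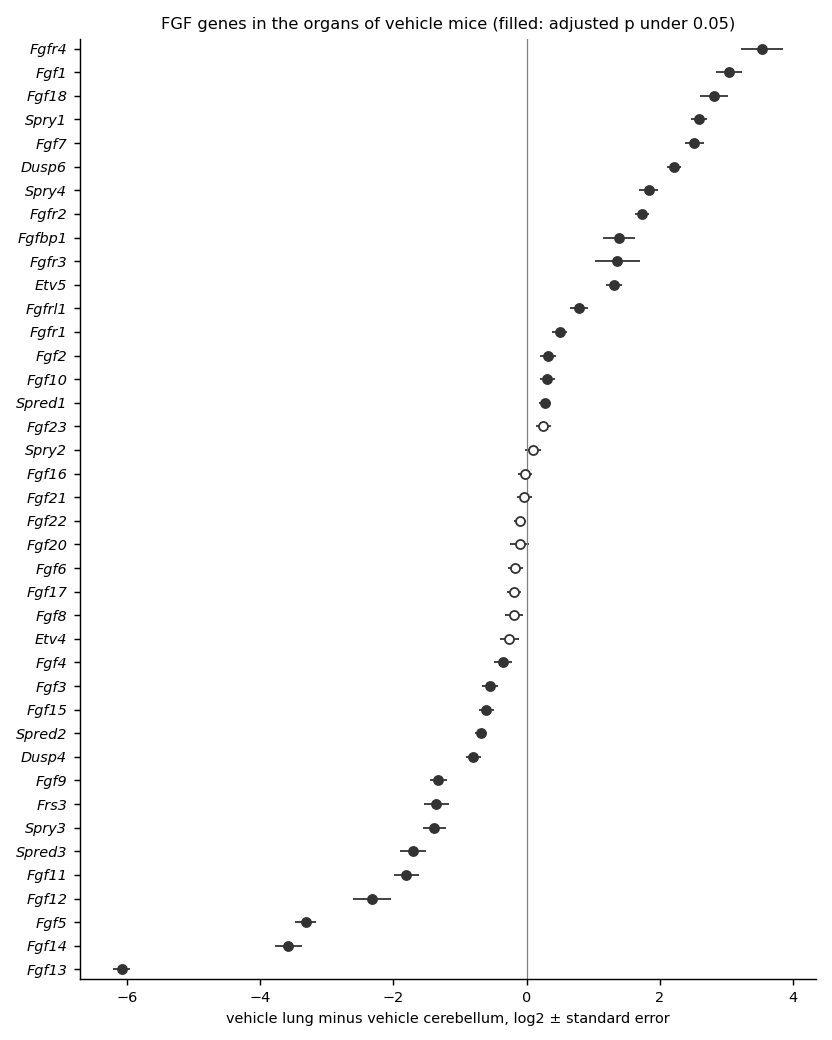
Differences between vehicle lung and vehicle cerebellum for the 40 FGF genes, as log2 difference ± standard error (x axis), with 4 arrays per organ. Filled points passed at an adjusted p under 0.05. Fgfr4 at 3.53 and Fgf1 at 3.04 lie farthest on the lung side and Fgf13 at -6.08 farthest on the cerebellum side.

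In lung, dexamethasone raised the carrier Fgfbp1 and, slightly, Fgfr2, and lowered Fgfr1, Etv4, Fgf13, Spry4 and Spred1. These 7 of 40 genes were 17.5%, against 31.2% called among all genes. 2 were higher (15.7% of all genes were) and 5 were lower (15.5% of all genes were), and 11 of the 40 had an unadjusted p under 0.05. The median change of the 40 was 0.05 on the log2 scale, equal to the 0.05 of all genes, and the median size was 0.18 against 0.21. None of the 15 paracrine or 3 endocrine ligands passed in lung.

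The largest change was in Fgfbp1. It read 8.90, 8.44, 9.20 and 9.70 in the 4 dexamethasone lungs, against 6.19, 6.52, 7.17 and 6.82 in the 4 vehicle lungs. The lowest dexamethasone lung stood more than 1 log2 unit above the highest vehicle lung, so the groups did not overlap. The means were 9.06 ± 0.53 and 6.68 ± 0.42 (SD, n = 4 each), a 5.23-fold rise (log2 change 2.39 ± 0.24, limma adjusted p = 1.21e-06). All 25 alternative fits kept the call, with log2 changes of 2.17 to 2.59. In cerebellum Fgfbp1 was 5.33 to 5.68 in the dexamethasone group and 4.89 to 5.54 in the vehicle group, levels that overlap.

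The promoters of Fgfbp1, raised most in lung, and Fgf7, raised in cerebellum, are shown because glucocorticoids act through a receptor that binds DNA. They run from 250 bases before to 50 bases after the start used in the promoter table (RefSeq, GRCm38.p6), which for Fgfbp1 lies inside the annotated gene, downstream of its 5′ end. Fgfbp1 lies at chr5:43981750-43982049 on the minus strand and Fgf7 at chr2:126034408-126034707 on the plus strand. Capitals mark the short glucocorticoid receptor motif AGAACA, read here on the other strand as TGTTCT.
Fgfbp1: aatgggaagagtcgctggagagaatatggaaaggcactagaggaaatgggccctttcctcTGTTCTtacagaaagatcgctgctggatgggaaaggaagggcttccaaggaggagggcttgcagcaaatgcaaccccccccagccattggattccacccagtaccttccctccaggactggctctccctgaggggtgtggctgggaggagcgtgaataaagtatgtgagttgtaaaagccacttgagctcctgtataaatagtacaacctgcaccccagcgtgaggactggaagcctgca
Fgf7: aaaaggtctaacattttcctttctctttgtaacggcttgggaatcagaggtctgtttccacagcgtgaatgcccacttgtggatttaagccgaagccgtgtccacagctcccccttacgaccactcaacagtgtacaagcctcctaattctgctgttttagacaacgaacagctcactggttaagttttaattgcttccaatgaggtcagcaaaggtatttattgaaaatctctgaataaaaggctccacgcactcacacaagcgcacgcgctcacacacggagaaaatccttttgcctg
The motif begins 190 bases before the Fgfbp1 start used there, and these letters are not in the Fgf7 window. On either strand it stood in 6233 of 32851 mouse promoters of this length (19%) and in 2 of the 37 entries found for 29 of the 40 FGF genes, those of Fgfbp1 and Fgf13. The ETS core CCGGAAG, or CTTCCGG on the other strand, stood in 8.86% of all promoters and in 1 of the 37, that of Fgfrl1. Neither window shown holds the ETS core, and a match is a description of the letters only.

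Fgfr1, the receptor most widespread in mesenchyme, was lowered. The dexamethasone lungs read 8.18, 8.44, 8.33 and 8.23, against 9.39, 9.59, 9.39 and 9.62 in vehicle lungs. Every dexamethasone lung stood about 1 log2 unit below every vehicle lung. The means of 8.30 ± 0.12 and 9.50 ± 0.12 (SD, n = 4 each) differed by -1.20 ± 0.11 on the log2 scale, a 2.30-fold fall (limma adjusted p = 4.6e-07), and the call held in all 25 alternative fits. The other 2 probe sets of Fgfr1 fell too, by 0.90 and 0.46 on the log2 scale (adjusted p over all probe sets = 2.97e-05 and 0.0454).

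Fgfr2, the epithelial receptor for Fgf7 and Fgf10, read 10.79, 10.96, 10.98 and 10.76 in dexamethasone lungs, against 10.57, 10.62, 10.30 and 10.80 in vehicle lungs. The ranges touch: vehicle array B22 lay above 2 dexamethasone arrays. The 1.23-fold rise (log2 change 0.30 ± 0.10, limma adjusted p = 0.0319) was lost in 7 of 25 alternative fits, without array B31, B40, B12, B14 or B19 (adjusted p = 0.0501 to 0.110), with the 2 lung groups alone (0.0921) and with Xist as a covariate (0.0513). A second Fgfr2 probe set rose by 0.80 (adjusted p over all probe sets = 7.26e-04) and the third changed by -0.08 (0.761).

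Fgfr3 and Fgfr4 did not pass in lung. Fgfr3 changed by 0.18 ± 0.34 (limma adjusted p = 0.735, 95% interval -0.55 to 0.92). That standard error is shared with cerebellum, where Fgfr3 was far more spread (SD 0.59 and 0.89) than in lung (SD 0.13 and 0.17). None of the 25 alternative fits, which include 1 with the lung groups alone, called Fgfr3 in lung (limma adjusted p at least 0.274). Fgfr4 read 9.84, 9.77, 9.73 and 8.03 in dexamethasone lungs, against 9.50, 9.73, 9.30 and 9.57 in vehicle lungs. The dexamethasone array B46 lay far below the other 7 lungs, and the change was -0.18 ± 0.32 (limma adjusted p = 0.717). Without B46 it was 0.26, also not called. Fgfrl1 changed by -0.19 ± 0.13 (limma adjusted p = 0.314).

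The ligands of lung mesenchyme and epithelium had no called change. Fgf10 was 4.99 ± 0.18 in dexamethasone lung and 5.02 ± 0.20 in vehicle lung (SD, n = 4 each), a dim signal on both sides. Fgf7 was 8.62 ± 0.15 in dexamethasone lung and 8.52 ± 0.15 in vehicle lung (SD, n = 4 each), with a 95% interval of the change from -0.22 to 0.42. Fgf18 changed by -0.08 (95% interval -0.54 to 0.38) and Fgf1 by 0.29 (95% interval -0.13 to 0.71). Fgf1 was 9.921 in dexamethasone array B46 and 10.505 to 10.558 in the other dexamethasone lungs, against 9.988 to 10.134 in vehicle lungs. Without B46 Fgf1 changed by 0.44, also not called. Fgf9, made by lung epithelium and mesothelium in development, changed by 0.34 ± 0.13 and missed the threshold (limma adjusted p = 0.0533). It passed in 11 of 25 alternative fits, among them those without array B28, B46, B19, B22, B79 or B81 (adjusted p = 0.0356 to 0.0474), and its second probe set changed by -0.21. Fgf4, a ligand of the early embryo that is below the median level in every group, changed by 0.35 (limma adjusted p = 0.0658) and passed without array B31, B19 or B39 (0.0181 to 0.0357).

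Fgf13 was the 1 intracellular factor called in lung, at a level near the bottom of the scale. It read 5.07, 5.14, 5.12 and 4.68 in dexamethasone lungs, against 5.23, 5.52, 5.74 and 5.48 in vehicle lungs. The groups did not overlap, but the nearest arrays, at 5.14 and 5.23, almost met. The log2 change was -0.49 ± 0.13, a 1.41-fold fall (limma adjusted p = 0.00641). The second Fgf13 probe set changed by 0.04, and with both averaged the change was -0.23 (adjusted p = 0.163).

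The readouts of ERK activity did not move together in lung. Etv4 read 6.23, 6.76, 6.35 and 6.66 in dexamethasone lungs, against 6.78, 6.99, 7.37 and 7.22 in vehicle lungs. All 4 dexamethasone lungs lay below all vehicle lungs, with 6.76 and 6.78 nearly meeting. Etv4 fell 1.51-fold (log2 change -0.59 ± 0.14, limma adjusted p = 0.00386), its second probe set also fell, by 0.64, and the call held in all 25 alternative fits. Its close relative Etv5 changed by 0.07 ± 0.12 (limma adjusted p = 0.737), while a dimmer Etv5 probe set, not the one that stands for the gene, rose by 0.62 (adjusted p over all probe sets = 0.00898). Dusp6, the ERK phosphatase, was 11.19 ± 0.13 in dexamethasone lung and 11.20 ± 0.16 in vehicle lung (SD, n = 4 each), with a 95% interval of the log2 change from -0.25 to 0.21. Dusp4 changed by 0.25 ± 0.12 (limma adjusted p = 0.111) and passed in 3 alternative fits, one of them without dexamethasone array B28 (adjusted p = 0.0202).

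Of the Sprouty and Spred genes, Spry4 and Spred1 fell in lung. Spred1, which brings neurofibromin to the membrane to restrain Ras, read 10.20, 10.34, 10.36 and 10.19 in dexamethasone lungs, against 10.69, 10.59, 10.90 and 10.59 in vehicle lungs. The groups did not overlap. The fall was 1.34-fold (log2 change -0.42 ± 0.09, limma adjusted p = 0.00244). 3 of its 8 probe sets fell and none rose, and the average of all 8 missed the threshold (-0.22, adjusted p = 0.0502). Spry4, an inhibitor of Ras activation by receptor kinases, read 9.32, 8.96, 9.29 and 8.78 in dexamethasone lungs, against 9.48, 9.57, 9.57 and 9.49 in vehicle lungs. The dexamethasone lungs were lower and also more spread (SD 0.26, against 0.05). The 1.36-fold fall (log2 change -0.44 ± 0.14, limma adjusted p = 0.0228) was seen in 2 of 4 probe sets. The call went when they were averaged (adjusted p = 0.0905), after cyclic loess (0.0563) and without array B31, B46, B14 or B19 (0.05003 to 0.0778).

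The other feedback genes did not pass in lung. Spry1 changed by 0.05 (95% interval -0.21 to 0.30), Spry2 by 0.15 (-0.12 to 0.41), Spry3 by 0.35 (-0.02 to 0.73) and Spred3 by 0.13 (-0.30 to 0.56). Spred2 changed by -0.21 ± 0.09 (limma adjusted p = 0.0993), but 2 of its other probe sets fell, by 0.90 and 0.53, and the average of its 5 probe sets was called (-0.31, adjusted p = 0.00676), as was the gene without dexamethasone array B40 (adjusted p = 0.0326).

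**Figure D2:**
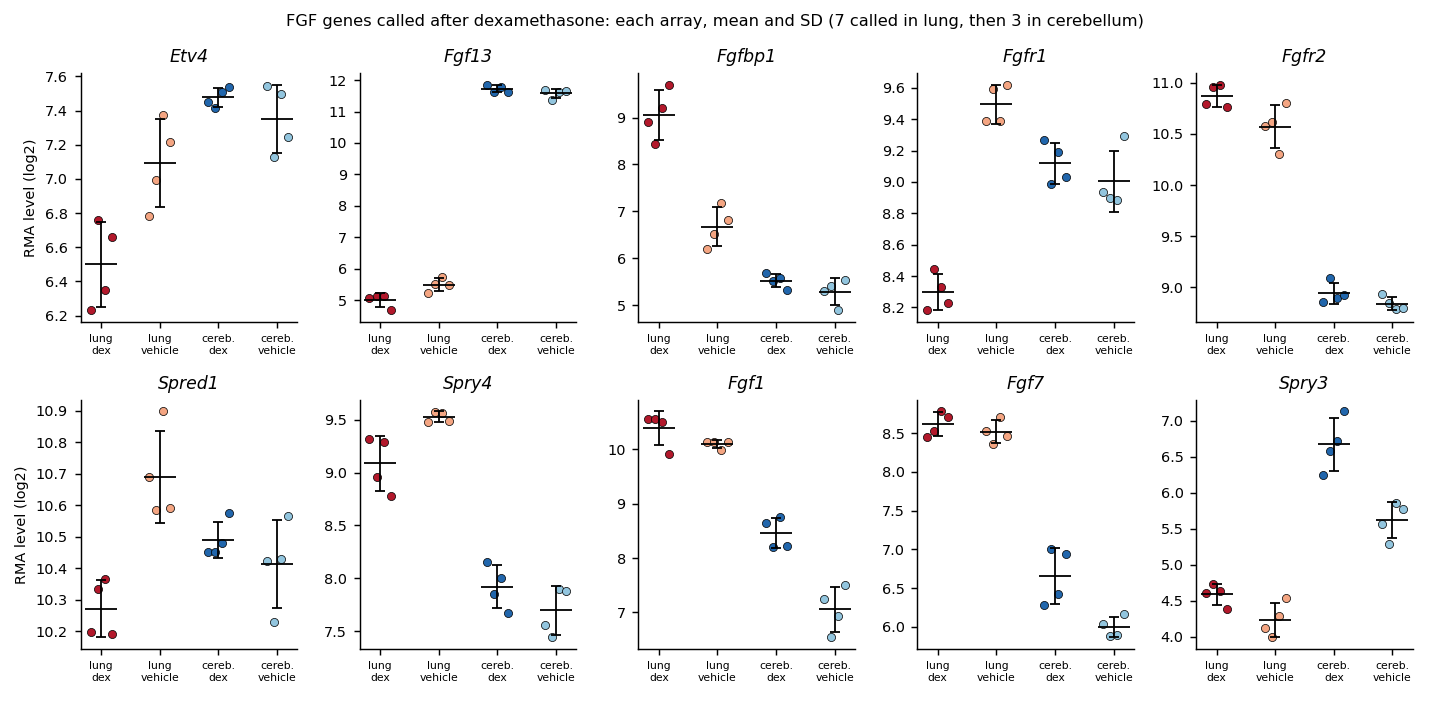
RMA level (y axis, log2) of the 10 FGF genes called after dexamethasone, 7 in lung and then 3 in cerebellum, in each of the 16 arrays, with the mean and SD of each group. Fgfbp1 in dexamethasone lung (8.44 to 9.70) lies above vehicle lung (6.19 to 7.17), and Fgfr1 in dexamethasone lung (8.18 to 8.44) below vehicle lung (9.39 to 9.62).

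The genes around the FGF receptors were read as 3 lists of genes outside the FGF set. In lung 15.7% of all genes were called higher and 15.5% lower. Of 22 measured heparan sulfate and co-receptor genes, 9 fell and 3 rose in lung, with a median change of -0.26 against 0.05 for all genes. Gpc4 and Gpc6, glypicans that carry heparan sulfate at the cell surface, fell by 1.39 and 1.23 on the log2 scale (limma adjusted p = 1.25e-07 and 2.5e-06). Ext1, an enzyme that polymerises heparan sulfate, fell by 0.90 (1.02e-05), and Sdc1, an epithelial syndecan, rose by 0.65 (1.14e-04).

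Of 17 measured Ras and ERK cascade genes, 4 fell and 1 rose in lung, with a median of -0.04. Among all genes 15.5% fell and 15.7% rose. Rasa1, a Ras GTPase activator, fell by 0.51 (limma adjusted p = 1.36e-04), the phospholipase Plcg1 by 0.46 (0.00101), the exchange factor Sos1 by 0.52 (0.00568) and the GTPase Nras by 0.28 (0.0140). Of 19 measured other FGF-ERK responsive genes, 4 rose and 4 fell, with a median of 0.20. Shisa3, a member of a family that retains FGF receptors in the endoplasmic reticulum in Xenopus, fell by 3.22 (limma adjusted p = 1.15e-08). Il17rd, an inhibitor of FGF signalling, fell by 0.82 (2.58e-04), Phlda1 fell by 0.45 (0.00128) and Flrt3, a membrane partner of FGF receptors, rose by 0.54 (8.47e-04).

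Cell type markers moved in the same lungs, and in whole organs fewer cells of a type and less RNA per cell cannot be told apart. For comparison, 15.7% of all genes were called higher and 15.5% lower in lung. All 11 measured proliferation markers fell. Their mean level was 7.36 to 8.08 in dexamethasone lungs and 9.83 to 10.31 in vehicle lungs. Of the 7 alveolar myofibroblast markers 5 fell and none rose (mean level 10.61 to 11.13 in lungs given dexamethasone and 11.75 to 12.01 in lungs given vehicle), and of the 8 fibroblast markers 4 fell and 1 rose (11.18 to 11.69 with dexamethasone and 11.97 to 12.19 with vehicle). Endothelial markers fell in 5 of 10 and rose in none (10.07 to 10.29 with dexamethasone and 10.56 to 10.79 with vehicle).

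Epithelial markers went the other way (15.7% of all genes were called higher in lung and 15.5% lower). In dexamethasone lung 5 of 8 alveolar type 2 markers rose (13.45 to 13.52, against 12.77 to 13.12 in vehicle lung), as did 5 of 8 alveolar type 1 markers (12.18 to 12.43, against 11.67 to 11.80 in vehicle lung) and 4 of 7 club and ciliated markers (10.89 to 11.06, against 9.70 to 10.24 in vehicle lung), with none falling. All 7 measured neutrophil markers rose (11.57 to 12.40 in dexamethasone lung, against 9.02 to 9.96 in vehicle lung), and of 10 macrophage markers 3 rose and 2 fell (9.34 to 10.23 in dexamethasone lung, against 8.86 to 9.09 in vehicle lung). The part of these shifts in the FGF changes was not tested.

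The labels set no batch apart within the lungs, but 2 measures were unequal between the lung groups. The 3′ minus 5′ difference of the Gapdh control probes was 0.45 to 0.71 in dexamethasone lungs and 0.84 to 1.04 in vehicle lungs, on the log2 scale, with no overlap. That of actin overlapped, at 0.451 to 0.642 in dexamethasone lungs and 0.611 to 0.667 in vehicle lungs. RNA integrity and treatment cannot be told apart in lung by the Gapdh measure. Xist, the transcript of the inactive X chromosome, was above 9 in 3 of 4 dexamethasone lungs and in 1 of 4 vehicle lungs. With Xist as a covariate Fgfr2 was the 1 called gene of the 7 that lost its call.

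In cerebellum, dexamethasone raised Fgf1, Fgf7 and Spry3 and lowered no FGF gene. The 3 of 40 genes called were 7.5%, against 4.8% of all genes. All were higher (2.84% of all genes were), and 0 were lower in limma (1.97% of all genes were); 5 of the 40 had an unadjusted p under 0.05. None was called lower in any of the 25 alternative fits. The median change of the 40 was 0.12 on the log2 scale, against 0.01 for all genes, and the median size was 0.13 against 0.12.

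Fgf1, the ligand with the broadest receptor range, read 8.65, 8.21, 8.75 and 8.22 in dexamethasone cerebella, against 7.25, 6.54, 6.94 and 7.51 in vehicle cerebella. Every dexamethasone cerebellum was above every vehicle cerebellum. The means were 8.46 ± 0.28 and 7.06 ± 0.41 (SD, n = 4 each), a 2.64-fold rise (log2 change 1.40 ± 0.19, limma adjusted p = 5.39e-04). A second Fgf1 probe set changed by 0.83 without passing (adjusted p over all probe sets = 0.161) and the third by -0.14. The average of all 3 missed the threshold (0.70, adjusted p = 0.0583), and the other 24 alternative fits kept the call.

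Fgf7 read 6.28, 7.001, 6.42 and 6.94 in dexamethasone cerebella, against 6.04, 5.89, 5.90 and 6.17 in vehicle cerebella. The groups did not overlap, although 6.28 in dexamethasone and 6.17 in vehicle cerebellum lay close together. The 1.58-fold rise (log2 change 0.66 ± 0.15, limma adjusted p = 0.0148) did not survive averaging of its 2 probe sets (adjusted p = 0.149), with cerebellum arrays alone (0.0572) and without array B49, B52 or B79 (0.0506 to 0.0529). Its second probe set changed by 0.03.

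Spry3, the Sprouty gene below the median level in every group, had 1 probe set. It read 6.25, 6.58, 6.72 and 7.13 in dexamethasone cerebella, against 5.56, 5.29, 5.86 and 5.77 in vehicle cerebella. The groups were fully apart. The 2.07-fold rise (log2 change 1.05 ± 0.17, limma adjusted p = 0.00205) held in all 24 alternative fits that include the gene.

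The remaining cerebellar members did not pass. Fgfr1, Fgfr2 and Fgfrl1 changed by 0.12, 0.10 and 0.19. The second probe sets of Fgfr1 and Fgfrl1 changed by 0.43 and 0.57 without passing (adjusted p over all probe sets = 0.0628 and 0.0582). Fgfr3 read 10.01, 9.11, 9.57 and 8.64 in dexamethasone cerebella, against 9.57, 7.81, 9.31 and 9.79 in vehicle cerebella. The spread was wide (SD 0.59 and 0.89). The 95% interval of the change, -0.52 to 0.95, also pools the tighter lung arrays and so may be too narrow for cerebellum. Fgfr4, dim in cerebellum, changed by -0.41 ± 0.32 (limma adjusted p = 0.612). The 4 intracellular factors, all with means above the median level of 7.37 in this organ, changed by -0.09 to 0.15.

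Among cerebellar readouts, Dusp6 changed by -0.08 (95% interval -0.30 to 0.15), Dusp4 by 0.04, Etv4 by 0.12 and Etv5 by 0.22. Spry1, Spry2 and Spry4 changed by 0.16, -0.10 and 0.22, and Spred1, Spred2 and Spred3 by 0.08, 0.20 and 0.26. The Spry3 rise was thus the 1 called change among 9 feedback genes and 2 ETS genes.

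Of the 3 surrounding lists, 1 gene was called in cerebellum, where 4.8% of all genes were. Sos1, the Ras exchange factor, rose by 0.71 ± 0.13 on the log2 scale (limma adjusted p = 0.00470), where the Ras and ERK cascade list had a median of 0.24. None of the 22 heparan sulfate and co-receptor genes passed (median -0.01), among them Sulf2, a sulfatase, at 0.16 ± 0.17 and Sdc3, a neural syndecan, at -0.04 ± 0.12. None of the 19 other responsive genes passed (median 0.08), among them Ccnd1 at -0.12 ± 0.13 and Egr1 at -0.42 ± 0.38.

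In cerebellum the Gapdh difference overlapped between the groups (0.05 to 0.18 with dexamethasone, 0.04 to 0.52 with vehicle), and 2 of 4 dexamethasone cerebella and 1 of 4 vehicle cerebella had Xist levels over 9. Marker lists also moved there, where 2.84% of all genes were called higher and 1.97% lower. Endothelial markers fell in 6 of 10 and rose in 1 (mean level 6.96 to 7.08 in dexamethasone cerebella and 7.49 to 7.78 in vehicle cerebella). The fibroblast list, drawn up for lung fibroblasts and lipofibroblasts, fell in 4 of 8 and rose in none (8.05 to 8.29 with dexamethasone, 8.64 to 8.83 with vehicle). Of 12 oligodendrocyte and precursor markers 5 rose and none fell (10.02 to 10.73 with dexamethasone, 9.11 to 10.05 with vehicle). Of 10 astrocyte and Bergmann glia markers 1 rose (11.36 to 11.54 with dexamethasone, 11.45 to 11.64 with vehicle), of 9 granule neuron markers 2 rose (9.93 to 10.50 with dexamethasone, 9.83 to 10.01 with vehicle), and of 6 Purkinje markers 1 rose (11.52 to 12.15 with dexamethasone, 11.44 to 11.69 with vehicle). None of 11 proliferation markers (9.75 to 10.49 with dexamethasone, 10.31 to 10.72 with vehicle) and none of 6 granule progenitor markers (9.55 to 10.28 with dexamethasone, 9.80 to 10.30 with vehicle) passed. Macrophage and microglia markers fell in 2 of 10, neutrophil markers in 2 of 7, and 1 of 6 choroid plexus markers fell. Their part in the rise of Fgf1, Fgf7 and Spry3 was not tested.

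**Figure D3:**
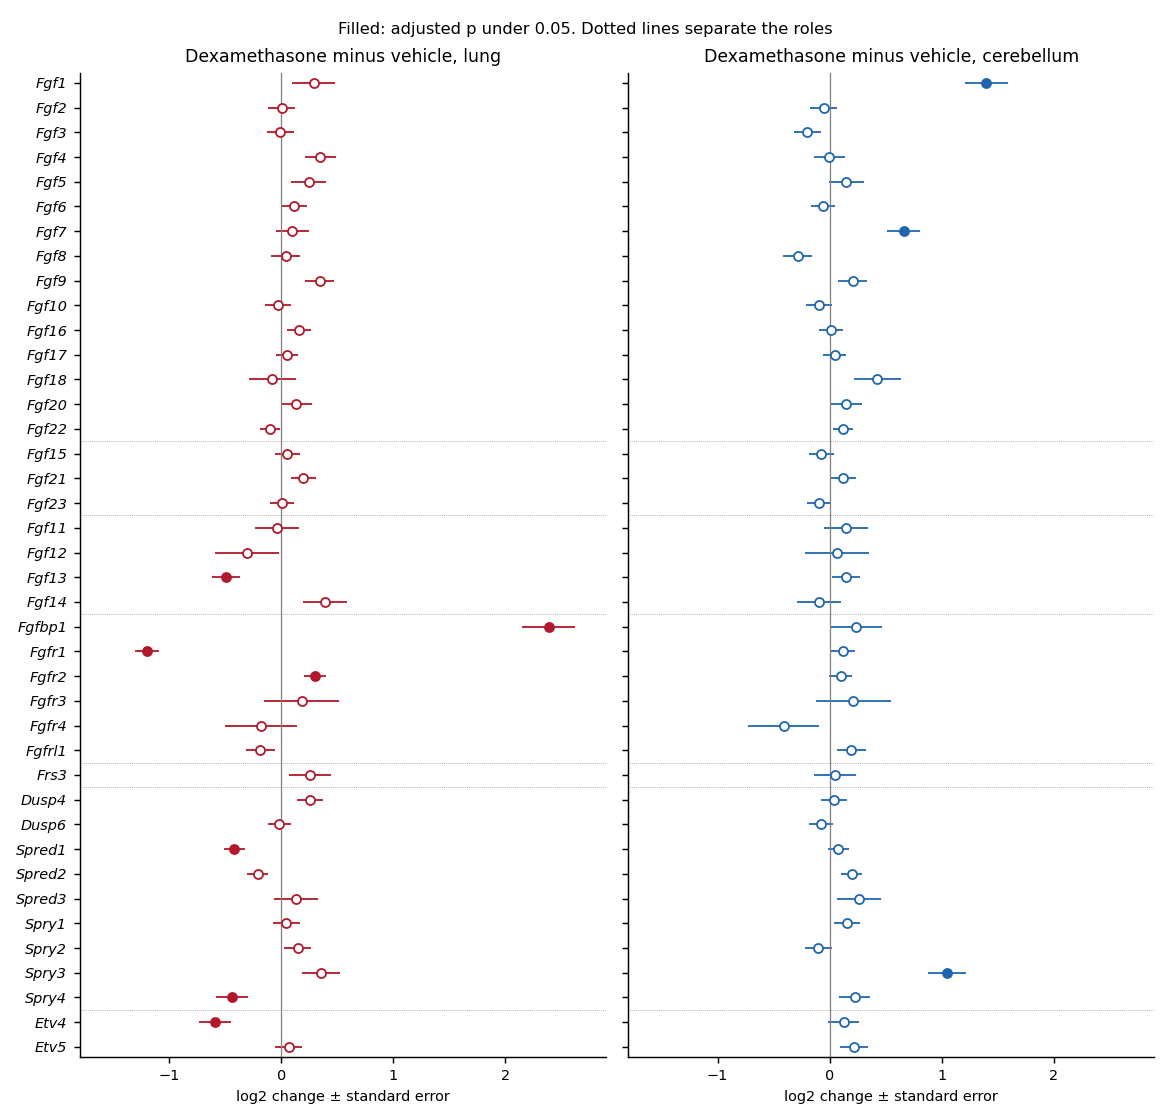
Change after dexamethasone (x axis, log2 ± standard error) of the 40 FGF genes in lung and in cerebellum, in order of role, with 4 arrays per group. Filled points passed at an adjusted p under 0.05. Fgfbp1 at 2.39 and Fgfr1 at -1.20 stand out in lung, and Fgf1 at 1.40 and Spry3 at 1.05 in cerebellum.

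The response of 8 of the 40 genes (20.0%) differed between the organs by a test of the difference itself, the lung change minus the cerebellum change, against 21.3% of all genes. 1 difference was above 0 (9.85% of all genes were) and 7 were below 0 (11.5% of all genes were), and 10 of the 40 had an unadjusted p under 0.05. The test includes the lung groups, whose Gapdh 3′ minus 5′ differences did not overlap. Fgfbp1 changed more in lung (2.39 in lung against 0.24 in cerebellum, difference 2.15 ± 0.33, limma adjusted p = 2.56e-04). Fgfr1 was lowered in lung and not called in cerebellum (-1.20 in lung against 0.12 in cerebellum, difference -1.32 ± 0.15, limma adjusted p = 2.09e-05). The second Fgfr1 probe set gave a difference of -1.33 (adjusted p over all probe sets = 6.15e-05), and the third one of -0.54, which was not called (0.128).

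The other lung calls with a negative difference were feedback and target genes and Fgf13. Etv4 differed by -0.72 ± 0.20 (limma adjusted p = 0.0163), Spry4 by -0.66 ± 0.20 (0.0235), Fgf13 by -0.64 ± 0.18 (0.0167) and Spred1 by -0.50 ± 0.13 (0.0129). With probe sets averaged Spry4, Fgf13 and Spred1 missed the threshold (adjusted p = 0.0680, 0.0885 and 0.0667), and Etv4 missed it after a second quantile normalization (0.0522). Spred2, called in neither organ alone, differed by -0.41 ± 0.13 (limma adjusted p = 0.0354). Its call was lost in 12 alternative fits, among them those without any 1 of 10 arrays (B49, B52, B78, B79, B80, B28, B46, B12, B14 and B22, adjusted p = 0.0532 to 0.0713).

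The cerebellar rises were less uniform in this test. Fgf1 rose in cerebellum by more than it changed in lung (0.29 in lung against 1.40 in cerebellum, difference -1.11 ± 0.27, limma adjusted p = 0.00746), a difference that averaging of the probe sets left uncalled (-0.41, adjusted p = 0.338). Fgf7 and Spry3 missed the threshold, with differences of -0.56 ± 0.21 (limma adjusted p = 0.0666) and -0.70 ± 0.24 (0.0510). Fgf7 passed without array B39 or B50 (adjusted p = 0.0169 and 0.0478) and Spry3 without B39, B80 or B14 (0.0151 to 0.0415). Fgfr2 differed by 0.20 (95% interval -0.11 to 0.51), so its rise in lung was not shown to differ from the 0.10 of cerebellum. Fgfrl1 differed by -0.38 and was not called (limma adjusted p = 0.168). Its second probe set was called (-0.90, adjusted p over all probe sets = 0.0104), as was the average of its probe sets (-0.64, adjusted p = 0.0200).

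Fgf1 and Spry4 lie near each other in the genome, with 2 protein-coding genes between them in the RefSeq annotation, as do Fgf2 and Spry1. In lung Spry4 was called lower and Fgf1 was not called (0.29 ± 0.19), while in cerebellum Fgf1 was called higher and Spry4 was not called (0.22 ± 0.14). The chromosomal neighbours Fgf3, Fgf4 and Fgf15, and Fgf6 and Fgf23, were not called in either organ.

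How much the probe sets of a gene agreed bears on several of these calls. Of the 10 called genes, Spry3 and Fgfbp1 had 1 probe set each, and all probe sets of Fgfr1 (3) and Etv4 (2) were called in the same direction in lung. For Fgfr2, Spred1 and Spry4 some passed and others did not, and for Fgf13, Fgf1 and Fgf7 only the probe set that stands for the gene passed. Whether probe sets read different transcript forms was not tested.

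**Figure D4:**
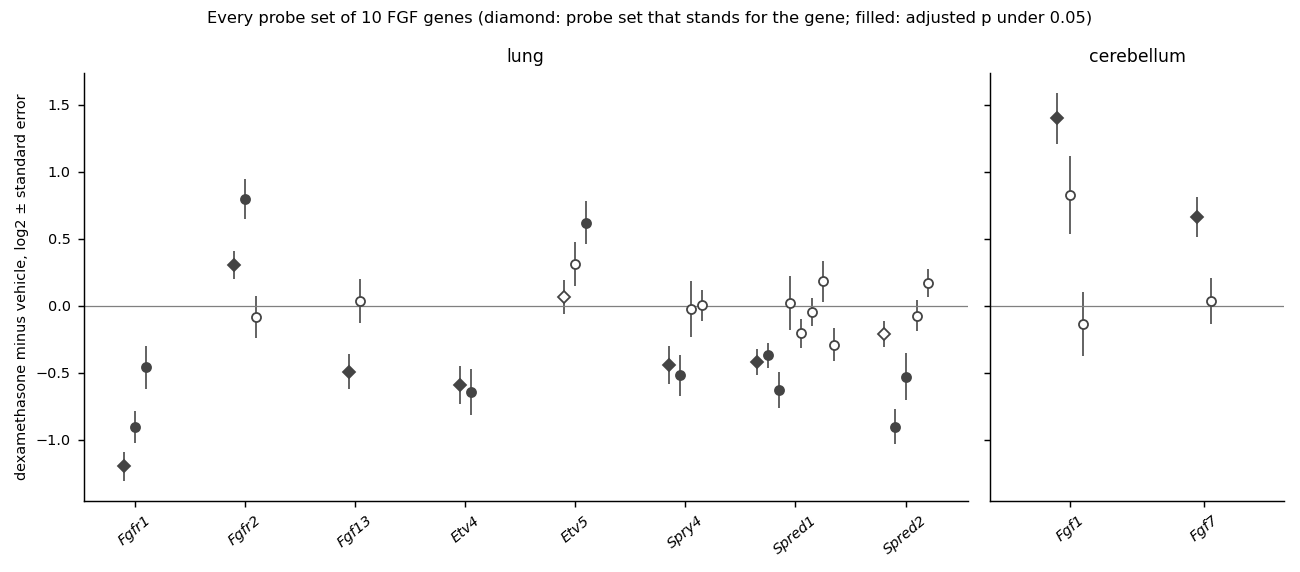
Log2 change after dexamethasone (y axis) of every probe set of 10 FGF genes, each in a single organ. Shown in lung are Fgfr1, Fgfr2, Fgf13, Etv4, Etv5, Spry4, Spred1 and Spred2, and in cerebellum Fgf1 and Fgf7. Etv5 and Spred2 were not called in lung. Diamonds mark the probe set that stands for the gene and filled symbols passed at an adjusted p under 0.05 over all probe sets. The 3 Fgfr1 probe sets lie at -1.20, -0.90 and -0.46 in lung, while those of Fgf1 in cerebellum lie at 1.40, 0.83 and -0.14.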

How the data were processed

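The values analysed are the deposited log2 expression values of 45101 probe sets on 16 Affymetrix mouse arrays. The authors made these log2 values with RMA (per the submitters' processing notes, where version and settings are unstated). RMA as commonly run corrects background, quantile normalizes and summarises probes, which makes values relative and would remove a shift common to all genes. Array medians were 5.87 to 6.00, values ran from 3.15 to 14.83, and no 2 arrays held identical values. The 45101 include 64 control probe sets, 932 with several gene symbols and 9160 with none, which were left out. The remaining 34945 were reduced to 18193 genes by the highest mean over the 16 arrays, and 18032 symbols were matched to RefSeq.

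limma 3.58.1 in R 4.3.3 (lmFit and eBayes) fitted 4 group means with 12 residual degrees of freedom, and p-values were adjusted over all 18193 genes (Benjamini-Hochberg, called under 0.05). The procedure was tested on simulated data with independent normal noise and, for each gene, the same spread in all groups. Outlying arrays and a spread that differs between the organs were not part of that test. Standard errors are limma's, and intervals are 95%. For each gene the changes in lung and in cerebellum have the same standard error, from the spread within all 4 groups. Array number limits the precision, and no read depth applies. Probe sets were also fitted one by one. In all 25 alternatives were computed, 16 of which leave out 1 array.

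FGF genes called after dexamethasone are given by array, others by mean or change. The receptors and the Spry, Spred, Dusp and Etv genes are named whatever their result. Of other pathway lists up to 4 called genes with the smallest adjusted p are named, or the 2 brightest. The genes and lists were chosen with earlier results of these data known. List genes that belong to the FGF set were left out of the lists. The labels give all arrays 1 hybridization date, which leaves no batch to test. Scripts used no column without a sample.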

Additional observations from a re-analysis of the deposited data

Results flagged for a closer look

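In 11 of 160 groups of 4 arrays (40 genes in 4 groups) 1 array stood apart from the other 3. Its gap, as a share of the group's range, was above Dixon's critical value for 4 samples. Chance gives about 1 in 20. A small gap is enough where the other 3 lie close together, as for Fgf8 in B50 (4.02, others 4.146 to 4.169). In dexamethasone lung, array B46 was lowest for Fgfr4 (8.029, others 9.729 to 9.839), Fgf1 (9.921, others 10.505 to 10.558) and Fgf13 (4.684, others 5.068 to 5.137). B46 also had the lowest array weight in limma, 0.264. In the same group array B40 was highest for Fgfr3 (10.854, others 10.595 to 10.598) and Spry2 (9.511, others 8.913 to 8.972). In vehicle lung, Fgf1 was lowest in B19 (9.988, others 10.125 to 10.134) and Dusp4 highest in B22 (8.002, others 7.846 to 7.854).

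In dexamethasone cerebellum, array B49 was lowest for Fgf11 (7.736, others 8.034 to 8.085) and highest for Fgf20 (5.48, others 4.961 to 5.002), and B50 was lowest for Fgf8 (4.02, others 4.146 to 4.169). In vehicle cerebellum, Fgfr1 was highest in B81 (9.292, others 8.888 to 8.935).

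The effect of dexamethasone in lung minus that in cerebellum passed the interaction test in limma for 8 genes. It was 2.15 for Fgfbp1 (adjusted p = 2.56e-04), -1.32 for Fgfr1 (2.09e-05), -1.11 for Fgf1 (0.00746), -0.72 for Etv4 (0.0163), -0.66 for Spry4 (0.0235), -0.64 for Fgf13 (0.0167), -0.50 for Spred1 (0.0129) and -0.41 for Spred2 (0.0354).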

How the results depend on the processing

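No result changed direction past its threshold in any of the 25 alternatives. The count of FGF genes called higher in lung was 2, and 4 after a second quantile normalization, 4 after cyclic loess and 1 with lung arrays alone; leaving out 1 array gave 1 to 4. With a gene's probe sets averaged, the count lower in lung was 3, against 5, the count higher in cerebellum 1, against 3, and the count of negative differences between organs 4, against 7. Array weights gave 2 positive differences, against 1. With dim genes left out, 9 genes were lower in vehicle lung than in vehicle cerebellum, against 14. That setting removed Fgf3, Fgf4, Fgf15, Spred3 and Spry3, which were called lower in the main fit and are below the median level in every group. The cause of the other shifts was not tested. Leaving out 1 array gave 4 to 6 lower in lung and 2 to 3 higher in cerebellum. Among all genes, calls in cerebellum (516 higher, 358 lower) were 962 and 737 with array weights, 315 and 213 without array B50, 305 higher without B80, and 217 and 201 lower without B49 and B79. No paired analysis was possible because the groups share no replicate numbers. For ligands near the bottom of the scale a change may not be measurable, and by the Gapdh probes RNA integrity and treatment cannot be told apart in lung. By the same probes RNA integrity and organ cannot be told apart between the vehicle groups.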
